A study of Ciona robusta with 6 samples.

Results

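Mesp, Foxf, Hand-r and a pair of Twist-related genes encode transcription factors of the heart and mesenchyme lineages, the mesoderm of the tunicate Ciona robusta that is neither notochord nor tail muscle. All 5 gene models, chosen by their identifiers, were present among the 15284 models of the deposited table, and all 5 passed the filter on low values. The table gives identifiers only, so the names are those in general use for these gene models and could not be checked against it. Embryos came from eggs injected before fertilization with Cas9 protein and a guide RNA, against Brachyury in the CrBra group and against GFP in the CrGFP group. GFP is no gene of this animal, so that guide served as the control, and the Cas9 injection was common to both groups. Each of the 3 libraries per group was made from part of a lysate of 50 to 85 whole embryos at Hotta stage 14, a neurula stage, grown at 21 degrees Celsius. The labels name no strain or parents, and injected embryos can be mosaic for the cut. The comparison asks whether these genes were more abundant when Brachyury was targeted, as they could be if mesoderm shifted towards mesenchyme or heart.

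Heart precursors of this animal descend from a small pair of founder cells that express Mesp, a basic helix-loop-helix factor needed for heart formation. Signalling through FGF in some of their daughters then turns on Foxf, a forkhead factor used for cell migration, and Hand-r, a factor related to Hand. Mesenchyme is specified beside the notochord by FGF signalling, with Twist-related factors acting downstream, and a posterior lineage divides into mesenchyme on the one side and secondary notochord on the other. Brachyury is a T-box factor of the notochord.

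Values are normalised counts, that is, reads divided by the authors' factor for the library, over libraries of 13191537 to 16094085 reads. Libraries that share a replicate number deviated together, so each CrBra library is also set against the CrGFP library of its number. The model KH.S1404.1 is taken to be Brachyury, a name that the table does not give. In it the CrBra libraries held 31.4%, 35.3% and 29.6% of the level of the CrGFP library of number 1, 2 and 3. Its normalised counts ran from 205 to 313 in CrBra and from 582 to 1058 in CrGFP, so the targeted transcript was lower in each CrBra library than in any control.

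None of the 5 genes passed the test between guides, neither higher nor lower. In limma without the replicate number as a block, 0 of the 5 passed at an adjusted p of 0.05, where 0% of all 11953 tested models did (60 at an unadjusted p under 0.05, of which 0 were among the 5 genes). The model taken as Brachyury, with a log2 fold change of -1.64, also missed the threshold in that fit (limma adjusted p 0.608). The lack of calls in that fit therefore says little about the 5 genes. With the number as a block, again 0 of the 5 passed, against 0.402% of all tested models, 0.385% lower and 0.0167% higher. The model taken as Brachyury did pass with the block (limma adjusted p 8.9e-05). The lowest adjusted p among the 5 genes was 0.999 in that blocked limma fit. On the recovered reads, edgeR, DESeq2 and limma-voom, each with and without the block, also called 0 of the 5. Of all 11953 tested models they called 0, 21 and 0 without the block, in that order, and 57, 58 and 54 with it. Without the block, DESeq2 did call the model taken as Brachyury (DESeq2 adjusted p 6.7e-05). The 5 log2 fold changes of CrBra over CrGFP lay between -0.23 and -0.03 with a median of -0.08, and the median over all tested models was 0.01. In all 5 genes the values of the groups overlapped, whereas the groups did not overlap in 1.78% of all tested models. The libraries were made from whole embryos, so fewer cells of a lineage and less RNA per cell cannot be told apart, and a change in few cells would be diluted.

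**Figure D1:**
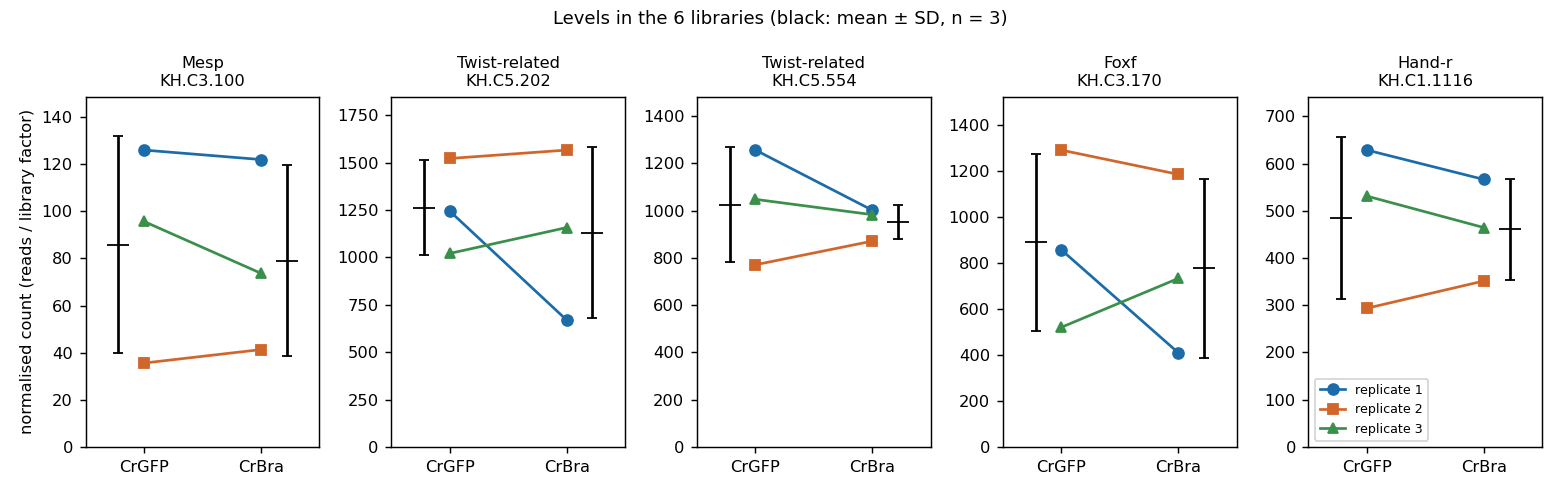
Normalised count of each gene in the 6 libraries, with a line joining the CrGFP and CrBra libraries of a replicate number and a black mean with SD (n = 3) beside each group. In every panel the groups overlap, and number 2 is lowest in Mesp, Hand-r and KH.C5.554 and highest in KH.C5.202 and Foxf.

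Mesp (KH.C3.100), the factor of the heart founder cells, had the fewest reads. Its normalised count in replicates 1, 2 and 3 was 126, 35.6 and 95.7 with the GFP guide and 122, 41.3 and 73.7 with the Brachyury guide. These values rest on 130, 35 and 94 reads in CrGFP and 144, 37 and 72 in CrBra. Number 2 was low with either guide and number 1 was high with either guide, and the groups overlapped across nearly their whole range. The mean was 85.7 ± 46.0 (SD, n = 3) over the controls and 79.0 ± 40.6 (SD, n = 3) over the CrBra libraries. The log2 fold change was -0.07, with a 95% interval of -0.45 to 0.31 in the blocked limma fit, which is 0.730- to 1.24-fold. Without the block the interval ran from 0.369- to 2.46-fold, so a doubling of Mesp was within it.

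Within numbers 1, 2 and 3, the CrBra library held 96.8%, 116% and 77.0% of the Mesp level of its control. The 95% exact binomial intervals on the reads, which cover counting error only and compare 2 libraries, were 75.8% to 124%, 71.1% to 190% and 55.9% to 106%. At this depth no number showed a difference in Mesp beyond counting error.

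Hand-r (KH.C1.1116), a factor related to Hand, had a normalised count of 629, 294 and 531 with the GFP guide in replicates 1, 2 and 3. With the Brachyury guide it was 566, 352 and 465. As in Mesp, the 2 libraries of number 2 were lowest and those of number 1 were higher than those of number 3 with the same guide. The mean was 485 ± 172 (SD, n = 3) over the controls and 461 ± 107 (SD, n = 3) over the CrBra libraries. Its log2 fold change of -0.03 was the smallest of the 5 genes, and 73.2% of all tested models had a difference at least as large. The blocked limma interval was 0.839- to 1.15-fold, and without the block it was 0.577- to 1.67-fold.

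Within the numbers the Hand-r ratio went either way. The CrBra library held 90.1% of the control level in number 1 (counting interval 80.7% to 101%), 120% in number 2 (102% to 141%) and 87.4% in number 3 (76.9% to 99.4%). Number 2 was thus higher with the Brachyury guide and number 3 lower, each by slightly more than counting error.

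Foxf (KH.C3.170), a forkhead factor, varied most within the numbers. Whole-embryo values do not show whether heart precursors held its transcript at this stage. The normalised count of Foxf in replicates 1, 2 and 3 was 857, 1291 and 520 with the GFP guide and 410, 1185 and 733 with the Brachyury guide. The lowest of the 6 libraries was CrBra replicate 1 and the highest CrGFP replicate 2, so that each group spanned more than a 2-fold range. The mean was 889 ± 386 (SD, n = 3) over the controls and 776 ± 390 (SD, n = 3) over the CrBra libraries. The log2 fold change was -0.23, with a blocked limma interval of 0.591- to 1.23-fold and an unblocked one of -1.31 to 0.85 on the log2 scale.

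The CrBra library held 47.8% of the Foxf level of its control in number 1, with a counting interval of 42.7% to 53.5%. It held 91.8% in number 2 (84.6% to 99.7%) and 141% in number 3 (126% to 158%). Numbers 1 and 3 therefore differed in opposite directions, by far more than counting error. In number 1, 1.19% of all tested models had a ratio as low or lower, and in number 3, 3.95% had one as high or higher. The SD of the 3 log2 ratios of Foxf was 0.78, and 2.60% of all tested models had an SD at least as large. The median SD over all tested models was 0.14. The standard error from these 3 ratios alone is 0.45, whereas limma, which borrows the spread of other models, gave 0.23, so the blocked interval is narrower than the gene's own spread. Without number 1 the blocked log2 fold change turned to 0.19, and without number 3 it was -0.59, with limma adjusted p-values of 0.999 and 0.0855.

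KH.C5.202, a Twist-related gene of the mesenchyme, had a normalised count of 1244, 1522 and 1021 with the GFP guide in replicates 1, 2 and 3. With the Brachyury guide it was 669, 1566 and 1157. As in Foxf, the libraries of number 2 were highest and CrBra replicate 1 was lowest, apart from the other 5 libraries. The mean was 1262 ± 251 (SD, n = 3) over the controls and 1131 ± 449 (SD, n = 3) over the CrBra libraries. The log2 fold change was -0.22, with a blocked limma interval of 0.650- to 1.13-fold and an unblocked one of 0.507- to 1.45-fold.

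In number 1 the CrBra library held 53.8% of the KH.C5.202 level of its control (counting interval 49.1% to 58.8%), and 1.87% of all tested models had a ratio as low or lower. It held 103% in number 2 (95.6% to 111%) and 113% in number 3 (104% to 124%). The lower mean of KH.C5.202 in CrBra therefore came from number 1. The SD of its log2 ratios was 0.58, which 6.13% of all tested models equalled or exceeded. Its standard error from the 3 ratios alone was 0.34, against 0.17 in limma. Without number 1 its blocked log2 fold change turned to 0.11, and without number 3 it was -0.43, with limma adjusted p-values of 0.999 and 0.277.

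KH.C5.554, the other Twist-related gene, behaved more evenly. Its normalised count in replicates 1, 2 and 3 was 1256, 771 and 1047 with the GFP guide and 1001, 871 and 982 with the Brachyury guide. The 3 CrBra libraries all lay inside the range of the controls. The mean was 1024 ± 243 (SD, n = 3) over the controls and 951 ± 70.4 (SD, n = 3) over the CrBra libraries. The log2 fold change was -0.08, with a blocked limma interval of 0.821- to 1.09-fold and an unblocked one of 0.681- to 1.31-fold.

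Within the numbers, the CrBra library held 79.7% of the KH.C5.554 level of its control in number 1 (counting interval 73.6% to 86.3%). It held 113% in number 2 (102% to 125%) and 93.8% in number 3 (85.8% to 103%). Number 1 was lower and number 2 higher with the Brachyury guide. The Twist-related genes are paralogs, and how the authors' counting assigned reads that match more than 1 copy is not given in the sources used here, so the split of reads between KH.C5.202 and KH.C5.554 is uncertain.

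**Figure D2:**
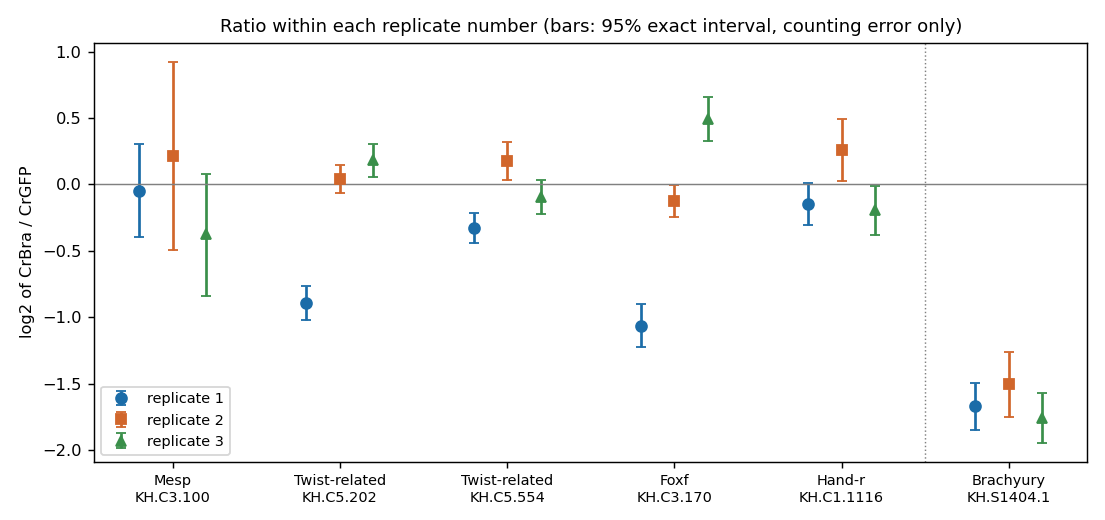
The log2 ratio of CrBra over CrGFP within each replicate number, for the 5 genes and, right of the dotted line, the model taken as Brachyury, with 95% exact intervals for counting error only. Brachyury lies near -1.6 in all 3 numbers, while each of the 5 genes has ratios on both sides of 0.

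Over the 5 genes, 0 were higher or lower in all 3 numbers, against 23.6% of all tested models. A difference of at least 1.5-fold in either direction was found in 2 of the 5 genes in number 1, Foxf and KH.C5.202, against 7.64% of all tested models. It was found in 0 of the 5 in number 2, against 5.21%, and in 0 of the 5 in number 3, against 5.73%. Foxf and KH.C5.202 were singled out here after their values were seen. Summed over the 5 genes, the normalised count in replicates 1, 2 and 3 was 4112, 3913 and 3215 with the GFP guide and 2768, 4015 and 3410 with the Brachyury guide. The sum in CrBra replicate 1 was the lowest of the 6, and the 2 other CrBra libraries were slightly above their controls.

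**Figure D3:**
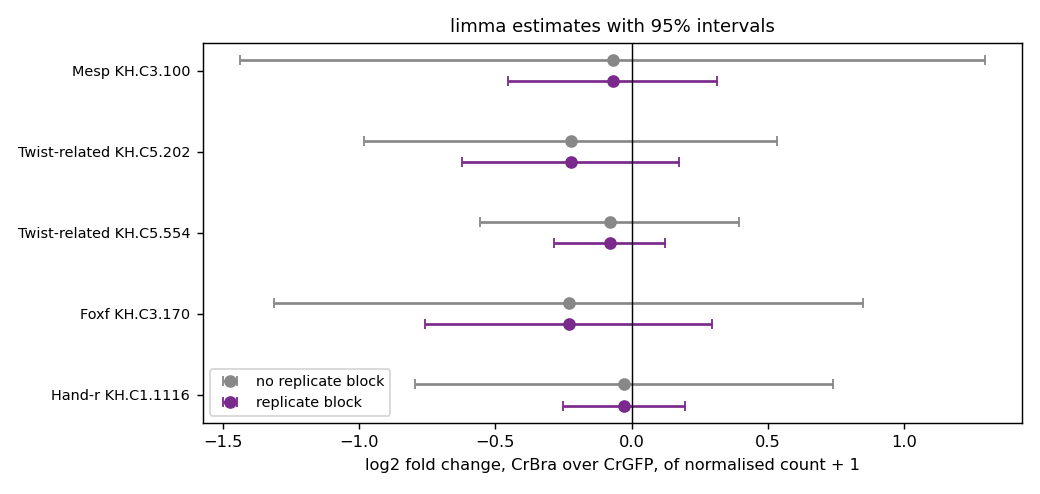
The log2 fold change of CrBra over CrGFP on the log2(normalised count + 1) scale, with 95% limma intervals without the replicate block (grey) and with it (purple). All 10 intervals include 0, and the blocked ones reach at most 1.24-fold upwards, in Mesp.

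The intervals depend on the fit and on the libraries in it, and a test that misses its threshold does not show that the levels were alike. In the blocked fit the upper limits were 1.24-fold in Mesp, 1.23-fold in Foxf, 1.15-fold in Hand-r, 1.13-fold in KH.C5.202 and 1.09-fold in KH.C5.554. As log2 fold changes these are 0.31, 0.30, 0.20, 0.17 and 0.12. Leaving out a number raised them to at most 0.54 in Mesp and 0.29 in Hand-r (without number 3), and to 0.40 in Foxf, 0.25 in KH.C5.202 and 0.21 in KH.C5.554 (without number 1). These fits rest largely on spread borrowed from other models, so they do not bound how far the limits can move. For Foxf, KH.C5.202, KH.C5.554 and Hand-r the blocked limits also rest on a standard error smaller than that of their own 3 ratios. In that order these were 0.23 against 0.45, 0.17 against 0.34, 0.089 against 0.145 and 0.098 against 0.144. In Mesp they were close, at 0.167 against 0.168. The limma intervals also use 8.25 degrees of freedom, more than 3 ratios alone give, so the Mesp limits rest on other models too. Foxf itself was at 141% of its control in number 3. Without the block the upper limits with all 6 libraries were log2 fold changes of 1.30 in Mesp, 0.85 in Foxf, 0.74 in Hand-r, 0.53 in KH.C5.202 and 0.39 in KH.C5.554.

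Larger differences lay between the replicate numbers than between the guides. With the guide as a covariate in limma, all 5 genes differed among the numbers at the 0.05 threshold, as 73.4% of all tested models did. Between the highest and the lowest number, Mesp differed by 3.18-fold, Foxf by 2.08-fold, Hand-r by 1.85-fold, KH.C5.202 by 1.69-fold and KH.C5.554 by 1.37-fold, against a median of 1.47-fold over all tested models. Only 7.33% of all tested models had a range at least as large as that of Mesp. The adjusted p of limma's F test was 0.000461 in Mesp, 0.000698 in Hand-r, 0.0141 in KH.C5.554, 0.0143 in Foxf and 0.029 in KH.C5.202. The labels do not say what a number marks.

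Of the variation of Mesp over the 6 libraries, on the log2 scale, 96.9% lay between the numbers and 0.245% between the guides. In Hand-r these shares were 93.0% and 0.134%. In KH.C5.554 the numbers held 74.5%, in Foxf 67.2% and in KH.C5.202 58.9%, and the guide held 3.43%, 3.78% and 7.42%. The rest, which neither the number nor the guide covers, was 22.1%, 29.1% and 33.7% in these 3 genes. Over all tested models the median share was 91.0% between the numbers and 1.49% between the guides. Mesp and Hand-r were thus near the typical model in their share between the numbers. KH.C5.554, Foxf and KH.C5.202 had less between the numbers and more between the guides than these medians. For comparison, Brachyury had 86.3% between the guides and 13.3% between the numbers.

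**Figure D4:**
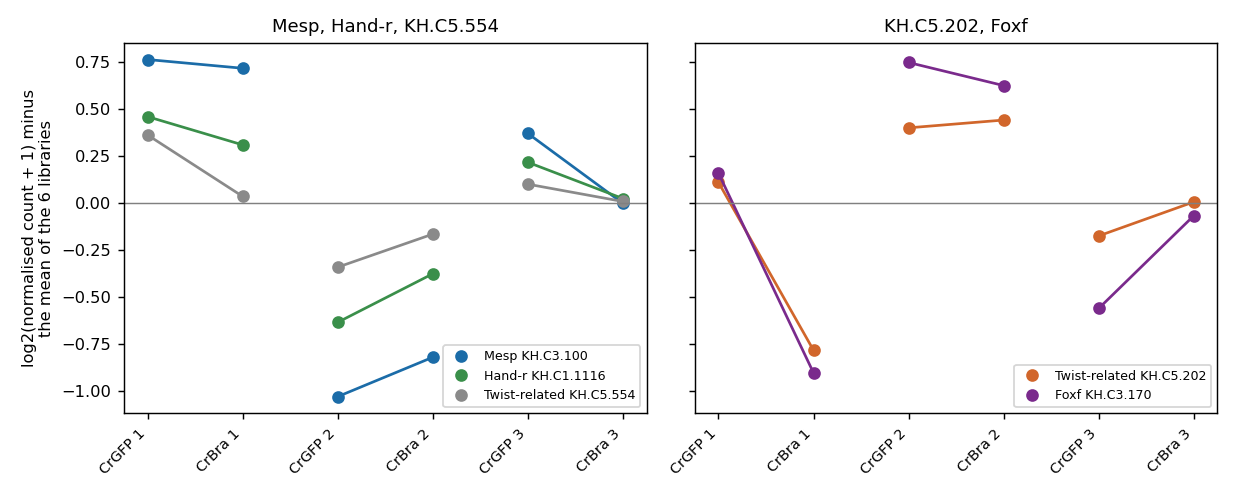
Each gene's log2(normalised count + 1) minus its mean over the 6 libraries, with a line joining the libraries of a number, for Mesp, Hand-r and KH.C5.554 (left) and for KH.C5.202 and Foxf (right). On the left number 2 lies below 0 with either guide, and on the right it lies above 0 and CrBra replicate 1 is lowest.

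The 5 genes followed 2 patterns across the libraries, a description that draws on 6 libraries sharing 3 numbers. Mesp and Hand-r ranked the 6 libraries in the same order, and their log2 levels correlated at 0.99. KH.C5.554 correlated with them at 0.90 and 0.94. KH.C5.202 and Foxf correlated with each other at 0.96. In each case other models were closer, so these values are not particular to the 5 genes. Among 11952 other tested models, Hand-r ranked 41 and KH.C5.554 ranked 1213 in likeness to Mesp. Foxf ranked 43 in likeness to KH.C5.202, and KH.C5.202 ranked 82 in likeness to Foxf. Between the patterns the correlations were negative, from -0.81 for Mesp and Foxf to -0.40 for the 2 Twist-related genes. Correlations with the model taken as Brachyury lay between -0.12 and 0.47. The Twist-related genes were thus in different patterns, and Foxf was not in that of Mesp. Whole-embryo levels do not show which cells held a transcript. Whether one of these genes acts on another was not tested.

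The models with the most similar pattern over the 6 libraries are given by identifier, as a description. Those most like Mesp were KH.C2.190, KH.C10.263 and KH.C7.477, with Pearson correlations of 0.999, 0.998 and 0.998. Of the 11952 other tested models, 30 reached 0.99 with Mesp, 6 with Hand-r, 4 with Foxf and 0 with either Twist-related gene. KH.C7.477, for example, had normalised counts of 1734, 1005 and 1491 in replicates 1, 2 and 3 with the GFP guide and of 1647, 1059 and 1369 with the Brachyury guide. It shared the low number 2 of Mesp with either guide.

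Hand-r was most like KH.C5.121 (0.996), KH.C3.312 (0.996) and KH.C2.190 (0.992), the last also in the list of Mesp, and Mesp ranked 9 in likeness to Hand-r. KH.C5.554 was most like KH.C14.484 (0.988), KH.L155.22 (0.982) and KH.C2.283 (0.976), with Hand-r at rank 21. These 3 had fewer than 50 normalised counts in every library, so their likeness rests on few reads.

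Foxf was most like KH.C12.464 (0.995), KH.C9.434 (0.994) and KH.C3.305 (0.993), and KH.C5.202 most like KH.C2.245 (0.988), KH.C4.138 (0.988) and KH.C3.297 (0.987). KH.C3.305 had normalised counts of 272, 376 and 173 in replicates 1, 2 and 3 with the GFP guide and of 140, 344 and 257 with the Brachyury guide. It had the same low CrBra replicate 1, below its control, and the same CrBra replicate 3 above its control as Foxf. The table names none of these models.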

How the data were processed

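Libraries for RNA-seq keep strand, per the labels' protocols. The submitters' processing notes name TopHat2 2.9.8b and DESeq 1.8.1, given as written there. How reads were counted, with which strand setting and on which build is not given in the sources used here. Next to the gene identifiers, the authors deposited a signal, the counts scaled by library size per the file headers. Beside it they deposited log2 values from a regularized transform, also per the file headers. In every column 100% of the values were whole multiples of 1 read within 0.01 reads, so whole reads were recovered. All 12 columns matched a sample by name.

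In limma 3.58.1 (R 4.3.3, mean-variance trend), log2(value + 1) was compared between CrBra and CrGFP over the 11953 models that reached a value of 10 in 3 or more libraries, two-sided, with Benjamini-Hochberg adjustment at 0.05. Count tests used edgeR 4.0.16 and DESeq2 1.42.0 on the recovered reads, and the fits were tested on simulated data. The simulation gave every model the same dispersion and no guide effect that varied between the numbers. It therefore does not cover genes whose ratios vary as much as those of Foxf and KH.C5.202. Whether replicate numbers pair the libraries was judged by the correlation of deviations from group means, which was 0.86, 0.88 and 0.82 for same-numbered libraries and -0.57 to -0.30 for others. Deviations from a group mean cancel out within the group, so positive same-numbered correlations push the others to negative values. The labels do not say what a number marks. As all 3 exceeded 0.1, the numbers were treated as pairing, and the blocked fit is given beside the fit without the block. The replicates are called biological in the series' design. The limma p-values rest on the spread between these samples and on spread borrowed from other models. With the block, it is the spread left after differences between the numbers are removed. Intervals on ratios of 2 libraries are 95% exact binomial intervals on reads.

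The genes and tests were chosen with earlier results of these data known. The genes named besides the 5 members are the targeted gene and, for each member, the 3 models with the highest Pearson correlation over the 6 libraries. None of the table's 15284 identifiers (0, the 5 members included) occur in the species' RefSeq gene table, which uses other identifiers, so positions, lengths and sequences were not used here, and neither other heart or mesenchyme genes nor markers of other cell types were analysed here.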

Additional observations from a re-analysis of the deposited data

How the results depend on the processing

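Each gene's log2 fold change was recomputed under 30 alternatives, and 0 of these 150 values passed the threshold. Without the block, every alternative except DESeq2 also called 0 of all tested models, so 0 calls there say little about the 5 genes. The alternatives with the block called 24 to 130 of all tested models. All 16 changes of sign came from leaving out a library or a number. Without each single library and without the block, the log2 fold change ran from -0.60 to 0.32 in Mesp, -0.50 to 0.11 in KH.C5.202, -0.27 to 0.080 in KH.C5.554, -0.60 to 0.16 in Foxf and -0.35 to 0.19 in Hand-r. With the replicate block and without replicate 1, it turned to 0.11 in KH.C5.202, 0.042 in KH.C5.554, 0.19 in Foxf and 0.033 in Hand-r, and without replicate 3 to 0.082 in Mesp and 0.054 in Hand-r. With all 6 libraries it kept its sign, at -0.12 to -0.03, -0.24 to -0.13, -0.11 to -0.05, -0.26 to -0.13 and -0.07 to -0.02 in the same order. edgeR's quasi-likelihood test also found all 5 genes to differ among the numbers, as it did 8804 of all 11953 tested models.

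Without the replicate block, 0 of all tested models passed in the other tools and settings (41 to 112 at an unadjusted p under 0.05, and 0 also without each library and at a 1% threshold), except DESeq2, which called 21. With the replicate block, limma called 48, with pseudocounts of 0.5 and 5 it called 46 and 54, with no filter 27, at 5 CPM 33, after TMM 46 and on the regularized log values 53, while edgeR called 57, DESeq2 58 and limma-voom 54. Leaving out each pair gave 24 (without number 2) to 130 (without number 3) blocked calls, 86 without number 1. The cause was not tested. No scaling moved the median log2 fold change of all models by more than 0.01. Mesp, with 35 to 144 reads per library, has the ratios with the widest counting intervals. The spread of the 3 log2 ratios was larger in Foxf (SD 0.78) and KH.C5.202 (0.58) than in Mesp (0.29).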
